A study of Mus musculus with 6 samples.

Results

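The genes described here are regulators of the cell cycle, 37 genes chosen by name: cyclins and their kinases (Cdks), Cdk inhibitors, the Rb family of pocket proteins, the E2F factors, mitotic kinases and the replication proteins Mcm2 and Mcm5. All 37 were found among the 55416 genes of the count table through their Ensembl identifiers and GENCODE names, and all 37 passed the filter on low counts. The names follow gene function, with no measured value in the rule, but they were picked with earlier results of these data known. They were described in 4 classes. The G1-S class held 11 genes (Ccnd1, Ccnd2, Ccnd3, Ccne1, Ccne2, Cdk2, Cdk4, Cdk6, Cdc25a, Mcm2 and Mcm5), the E2F and pocket protein class 11 (Rb1, Rbl1, Rbl2 and E2f1 to E2f8), the inhibitor class 4 (Cdkn1b, Cdkn2a, Cdkn2b and Cdkn2c) and the G2-M class 11 (Ccna2, Ccnb1, Ccnb2, Cdk1, Cdc25b, Cdc20, Plk1, Aurka, Aurkb, Bub1 and Mki67).

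The study asked how mouse embryonic stem cells (mESCs) leave naïve pluripotency when the transcription factor OCT6 is missing. WT 46C mESCs, a line that expresses GFP from the neural gene Sox1, and Oct6 KO cells derived from it were kept in 2i and LIF. Both were then differentiated for 48 h to epiblast-like cells (EpiLCs) in N2B27 with 1% KSR, bFGF and Activin A on fibronectin. Total RNA of 3 paired biological replicates of each genotype was sequenced after ribosomal RNA depletion, which gave 6 libraries. The KO cells were a single CRISPR/Cas9 clone with a homozygous insertion next to the start codon of Oct6, so that genotype and clone cannot be told apart.

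Progress through the cycle is driven by Cdks that are switched on by cyclins. In G1, D-type cyclins with Cdk4 and Cdk6, and later E-type cyclins with Cdk2, phosphorylate the pocket proteins, which then release E2F factors to transcribe the genes of DNA replication. Ink4 inhibitors block Cdk4 and Cdk6, whereas Cip/Kip inhibitors such as Cdkn1b bind a broader set of cyclin-Cdk complexes. Entry into and exit from mitosis rest on Cdk1 with cyclins A and B, on the Plk1 and Aurora kinases and on the ubiquitin ligase co-activator Cdc20. Pluripotent cells are known for a rapid cycle with a short G1 phase.

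Promoter sequences of members are shown first, because G1-S and G2-M genes are known to differ in the elements through which they are timed. RefSeq windows of 300 bases (250 before and 50 after a transcription start, GRCm38.p6) were available for 29 of the 37 members. The E2F element was searched as TTTGGCGC, TTTCGCGC, TTTCCCGC and TTTGCCGC, the cell cycle genes homology region (CHR) as TTTGAA and TTTAAA, the CCAAT box as CCAAT, and the octamer, the element that OCT factors of the POU family are known to bind, as ATGCAAAT. Both strands were searched and overlapping matches were counted. A gene with more than 1 window was taken to hold a word if any of its windows did. A CHR word stood in a window of 7 of 9 G2-M members and 3 of 8 G1-S members, against 22.6% of 10735 tested genes with a window. CCAAT stood in all 9 G2-M members with a window and in 5 of 8 G1-S members, against 43.6% of the tested genes. An E2F word stood in 3 of 8 G1-S members, 1 of 9 G2-M members and 4 of 8 members of the E2F and pocket protein class, against 4.94% of the tested genes. The octamer word was found in 1 member, E2f3, in 1 of its 2 windows, and in 1.71% of the tested genes. These are matches of letters only. The windows below were picked because Mcm5 held a pair of overlapping E2F words, E2f2 is a member whose level differed between the genotypes and holds an E2F word, Cdk1 and Plk1 show the CHR words of G2-M genes, and E2f3 holds the octamer. E2f2 and E2f3 had 2 windows each, and for each the one that holds the marked word is printed. Capitals mark the E2F words in Mcm5 and E2f2, the CHR words in Cdk1 and Plk1 and the octamer words in E2f3. Each sequence runs 5′ to 3′ on the strand of its gene.
Mcm5 (chr8:75109259-75109558, + strand): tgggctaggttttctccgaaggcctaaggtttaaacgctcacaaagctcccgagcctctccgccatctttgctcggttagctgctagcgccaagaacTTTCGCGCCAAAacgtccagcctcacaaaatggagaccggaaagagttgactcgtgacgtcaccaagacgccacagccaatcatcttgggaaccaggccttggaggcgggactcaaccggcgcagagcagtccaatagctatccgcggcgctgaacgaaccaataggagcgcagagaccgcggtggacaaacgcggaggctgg
E2f2 (chr4:136172024-136172323, + strand): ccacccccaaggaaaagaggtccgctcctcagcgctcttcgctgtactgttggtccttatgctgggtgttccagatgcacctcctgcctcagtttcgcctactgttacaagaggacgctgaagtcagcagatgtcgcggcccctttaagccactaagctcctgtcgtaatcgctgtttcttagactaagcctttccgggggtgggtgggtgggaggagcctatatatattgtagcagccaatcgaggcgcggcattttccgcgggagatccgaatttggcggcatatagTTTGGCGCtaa
Cdk1 (chr10:69352863-69353162, - strand): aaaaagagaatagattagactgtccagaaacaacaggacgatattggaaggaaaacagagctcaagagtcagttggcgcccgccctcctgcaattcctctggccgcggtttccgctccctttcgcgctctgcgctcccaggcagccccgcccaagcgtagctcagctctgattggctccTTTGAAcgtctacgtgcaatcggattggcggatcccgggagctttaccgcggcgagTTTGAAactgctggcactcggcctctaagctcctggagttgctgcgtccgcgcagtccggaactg
Plk1 (chr7:122159185-122159484, + strand): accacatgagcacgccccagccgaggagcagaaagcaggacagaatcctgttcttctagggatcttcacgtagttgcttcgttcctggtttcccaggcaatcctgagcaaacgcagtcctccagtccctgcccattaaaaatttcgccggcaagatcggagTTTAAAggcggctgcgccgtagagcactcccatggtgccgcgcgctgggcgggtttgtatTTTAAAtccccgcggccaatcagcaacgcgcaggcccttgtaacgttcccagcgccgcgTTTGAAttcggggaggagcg
E2f3 (chr13:29986014-29986313, - strand): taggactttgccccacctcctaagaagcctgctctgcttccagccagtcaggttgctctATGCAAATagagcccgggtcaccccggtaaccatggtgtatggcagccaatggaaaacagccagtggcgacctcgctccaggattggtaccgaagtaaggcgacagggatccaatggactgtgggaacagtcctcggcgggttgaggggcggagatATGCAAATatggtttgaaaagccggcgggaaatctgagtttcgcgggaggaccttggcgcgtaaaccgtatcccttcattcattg
In the counts, Mcm5, Cdk1, Plk1 and E2f3 did not pass the test between the genotypes, and E2f2 did so narrowly, as described below.

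The libraries held between 10995505 and 14680930 counts, and levels are given as CPM, counts set against TMM-scaled library totals. Values of single libraries follow the order of replicates 1 to 3. The targeted gene Oct6 (listed as Pou3f1, ENSMUSG00000090125.4) reached 161, 143 and 122 CPM in WT libraries and 127, 141 and 129 CPM in KO libraries. Its groups overlapped, and since the KO allele carries a small insertion, counts on the gene do not check the genotype. In the KO libraries, chromosome 6 held between 4.88% and 4.90% of the counts, against 6.25% to 6.37% in WT libraries, and chromosome 16 held between 3.98% and 4.06%, against 2.61% to 2.70%. The median log2 fold change (KO minus WT) was −0.40 over the 773 genes tested on chromosome 6, 0.55 over the 471 on chromosome 16 and 0.0014 over all 15746 genes tested. For each gene on these chromosomes, the median log2 fold change of the other tested genes that start within 10 Mb is therefore given beside its own. Of the EpiLC markers, Pou5f1, Sox2, Fgf5, Otx2, Dnmt3a and Dnmt3b were expressed in all libraries, with a summed level of 3015 to 3355 CPM in WT and 3025 to 3202 CPM in KO EpiLCs. Sox2, Fgf5 and Otx2 were among the genes higher in KO EpiLCs. The 5 naïve markers (Klf4, Esrrb, Tbx3, Zfp42 and Tfcp2l1) summed to 170.0 to 176 CPM in WT and 233 to 302 CPM in KO EpiLCs, and 2 of them (Esrrb and Zfp42) were higher in KO EpiLCs. Summed markers of primitive endoderm, mesoderm, neural cells, trophoblast and fibroblasts stayed between 1.05 and 12.8 CPM per list and library. No list was at 0, and Postn had 1 count in WT replicate 2 and 0 in every other library. Of these lists, 2 of 5 primitive endoderm genes (Gata6 and Pdgfra) and 1 of 4 mesoderm genes (Eomes) were higher, and 1 of 2 neural (Sox1), 1 of 3 trophoblast (Krt7) and 1 of 4 fibroblast genes (Thy1) were lower in KO EpiLCs. The part of these differences in the results below was not tested. In RNA from whole cultures, a change in the share of cells in a phase and a change in RNA per cell cannot be told apart.

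Between WT and KO EpiLCs, 10 of the 37 members differed at an adjusted p below 0.1 in edgeR, where the Benjamini-Hochberg adjustment of the quasi-likelihood p-values ran over all genes tested (SE denotes the standard error of a log2 fold change). Cdk6, Ccne2, Rb1, Rbl2 and E2f2 were higher and Ccnd1, Mcm2, E2f6, Cdkn1b and Cdkn2b were lower in KO EpiLCs. This share of 27.0% stood beside 24.3% of all 15746 genes tested, of which 11.8% were higher and 12.5% lower, so that the share among the members was near that of genes at large. With DESeq2 9 members passed (22.3% of all genes), and 11 did so when replicate numbers entered edgeR as a block (30.3%). The changes were moderate. No member reached a log2 fold change of 1 in either direction, whereas 6.21% of all genes did so with an adjusted p below 0.1. The median absolute log2 fold change was 0.15 over the members and 0.23 over all genes tested. The members and all genes were not matched by level in these comparisons of size. KO and WT libraries did not overlap for 16 members, 8 higher and 8 lower, against 33.7% of all genes tested. By class, 4 of 11 G1-S members, 4 of 11 E2F and pocket protein members, 2 of 4 inhibitors and 0 of 11 G2-M members passed.

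**Figure D1:**
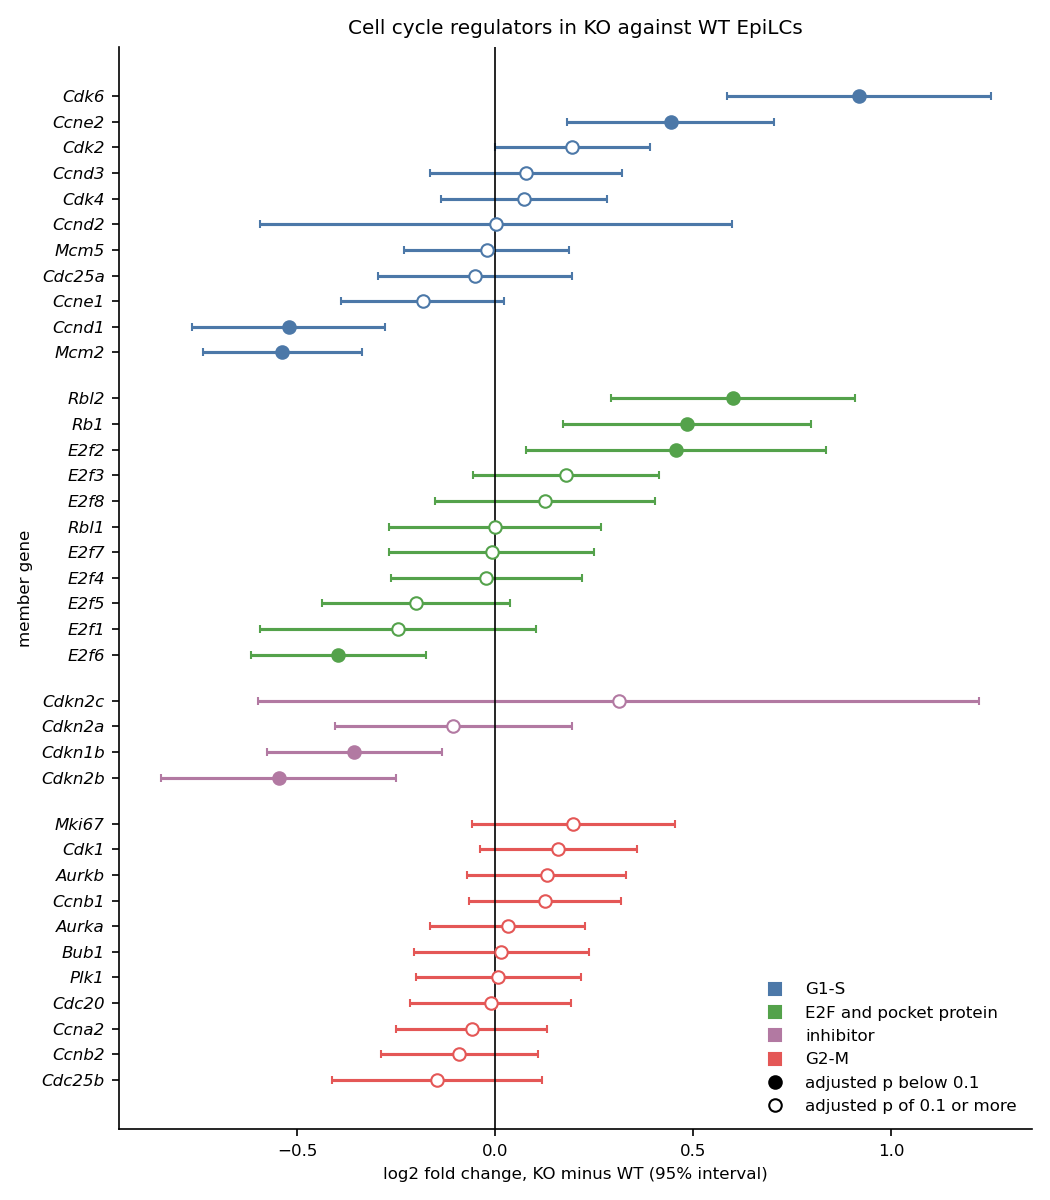
Log2 fold changes of the 37 members between KO and WT EpiLCs (x axis, KO minus WT) with 95% intervals from edgeR, 3 libraries per genotype, members on the y axis sorted within 4 classes. Filled points passed an adjusted p below 0.1. Called genes lie among the G1-S, E2F and pocket protein and inhibitor classes, from −0.55 for Cdkn2b to 0.92 for Cdk6, and all 11 G2-M genes are open points between −0.15 and 0.20.

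Among the G1 cyclins and kinases, the D-type cyclin Ccnd1 was lower and Cdk6 was higher in KO EpiLCs. Ccnd1 (ENSMUSG00000070348.6, chromosome 7 of GRCm39, 144483668 to 144493662) is the D-type cyclin that growth factor signals most directly control. It had 238, 254 and 262 CPM in WT libraries and 150.3, 213 and 162 CPM in KO libraries. Every KO library was below every WT library, and KO replicate 2 was the nearest to WT. The log2 fold change was −0.52 (SE 0.12, edgeR adjusted p = 0.00345), and it stayed between −0.69 and −0.42 when single libraries were left out. Ccnd1 shares 2315 exonic bases with LTO1 on the opposite strand, a gene with 5.93% of its counts. Cdk6 (ENSMUSG00000040274.12, chromosome 5, 3391485 to 3581008), a kinase partner of D-type cyclins, had 14.0, 21.1 and 19.1 CPM in WT and 28.4, 40.0 and 33.8 CPM in KO libraries. The groups did not overlap, and replicate 1 was the lowest and replicate 2 the highest in both genotypes. Its log2 fold change of 0.92 (SE 0.16, edgeR adjusted p = 0.000386) was the largest in size of the 37 members.

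The other D-type cyclins and Cdk4 did not pass the test. Ccnd3 had 43.5 to 53.8 CPM in WT and 47.2 to 57.5 CPM in KO EpiLCs (log2 fold change 0.078, 95% interval −0.16 to 0.32), and over 369 exonic bases it overlaps Bysl on the opposite strand, which held 165% as many counts. Ccnd2 lay near the lower end of the levels, between 2.39 and 3.73 CPM in all libraries, so that its interval was wide (−0.59 to 0.60), and its neighbourhood on chromosome 6 had a median of −0.051. Cdk4, the most abundant G1 kinase of the list per length, had 510 to 611 CPM in WT and 550.2 to 623 CPM in KO EpiLCs (log2 fold change 0.072, 95% interval −0.14 to 0.28). To compare genes, levels were set per kilobase of exon, over all annotated exons of a gene together. That length can exceed that of the transcripts present, so that shares and orders of genes are approximate. On this scale Ccnd1 made up 89.7%, 89.6% and 91.6% of the D-type cyclin level in WT libraries. In KO libraries its share was 85.1%, 88.5% and 83.9%. Ccnd1 was thus the main D-type cyclin in every library, with a lower share in each KO library than in any WT library. The summed D-type cyclin level was 58.2 ± 2.35 CPM per kb (SD, n = 3) in WT and 42.6 ± 6.97 CPM per kb in KO EpiLCs. Cdk6 made up 0.761% ± 0.188 (SD, n = 3) of the Cdk4 and Cdk6 level per length in WT and 1.34% ± 0.237 in KO EpiLCs, and Cdk4 the other 99.2% and 98.7%.

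Of the E-type cyclins, which activate Cdk2 at the entry into S phase, Ccne2 was higher in KO EpiLCs and Ccne1 did not pass. Ccne2 (ENSMUSG00000028212.17, chromosome 4, 11190303 to 11204947) rose from 40.8, 40.2 and 50.1 CPM in WT to 55.9, 69.4 and 53.2 CPM in KO libraries. The groups did not overlap, WT replicate 3 and KO replicate 3 being the nearest, and KO replicate 2 was the highest. The log2 fold change was 0.44 (SE 0.12, edgeR adjusted p = 0.0166). Without KO replicate 2 it was 0.32 and the adjusted p 0.131, above the threshold. Over 852 bases, exons of Ccne2 overlap those of Ints8 on the opposite strand, which held 201% as many counts and had a log2 fold change of −0.15, and reads there cannot be told apart if counting ignored the strand. Ccne1 had 291, 262 and 240 CPM in WT and 233, 239 and 225 CPM in KO libraries. Its KO libraries lay below its WT libraries, but the difference did not pass (log2 fold change −0.18, 95% interval −0.39 to 0.022, edgeR adjusted p = 0.226). Per length, Ccne1 supplied 90.3% ± 1.90 (SD, n = 3) of the E-type cyclin level in WT and 85.9% ± 1.41 in KO EpiLCs, and their summed level was 80.6 ± 6.36 and 74.7 ± 3.41 CPM per kb. Cdk2 itself had 88.7 to 96.1 CPM in WT and 104 to 108 CPM in KO EpiLCs, groups that did not overlap, and its log2 fold change of 0.20 did not pass (edgeR adjusted p = 0.172). Cdc25a, the phosphatase that activates Cdk2, had 113 to 134 CPM in WT and 99.4 to 137 CPM in KO EpiLCs and did not pass either (edgeR adjusted p = 0.819).

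Mcm2 and Mcm5 are subunits of the Mcm2-7 helicase, which licenses replication origins in G1. Mcm2 (ENSMUSG00000002870.9, chromosome 6, 88860452 to 88875762) fell from 775, 882 and 754 CPM in WT to 533, 577 and 551 CPM in KO libraries, with no overlap. Its log2 fold change was −0.54 (SE 0.096, edgeR adjusted p = 0.000542). The 145 other tested genes within 10 Mb had a median of −0.51, so that Mcm2 differed from its neighbours by little. Mcm5, on chromosome 8, had 692 to 867 CPM in WT and 757 to 787 CPM in KO EpiLCs (log2 fold change −0.022, 95% interval −0.23 to 0.19). The other subunits of the complex were looked at after the values were seen. Mcm4, on chromosome 16, rose from 367, 353 and 389.6 CPM in WT to 562, 556 and 547 CPM in KO libraries (log2 fold change 0.58, SE 0.092, edgeR adjusted p = 0.000155), and its neighbours within 10 Mb had a median of 0.53. Mcm3, Mcm6 and Mcm7 had log2 fold changes of 0.029, −0.0083 and 0.11 and did not pass. Transcripts of a complex whose subunits work in equal numbers were therefore shifted in opposite directions, each by about as much as its chromosomal neighbourhood. The part of the chromosome shift in either change was not tested.

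**Figure D2:**
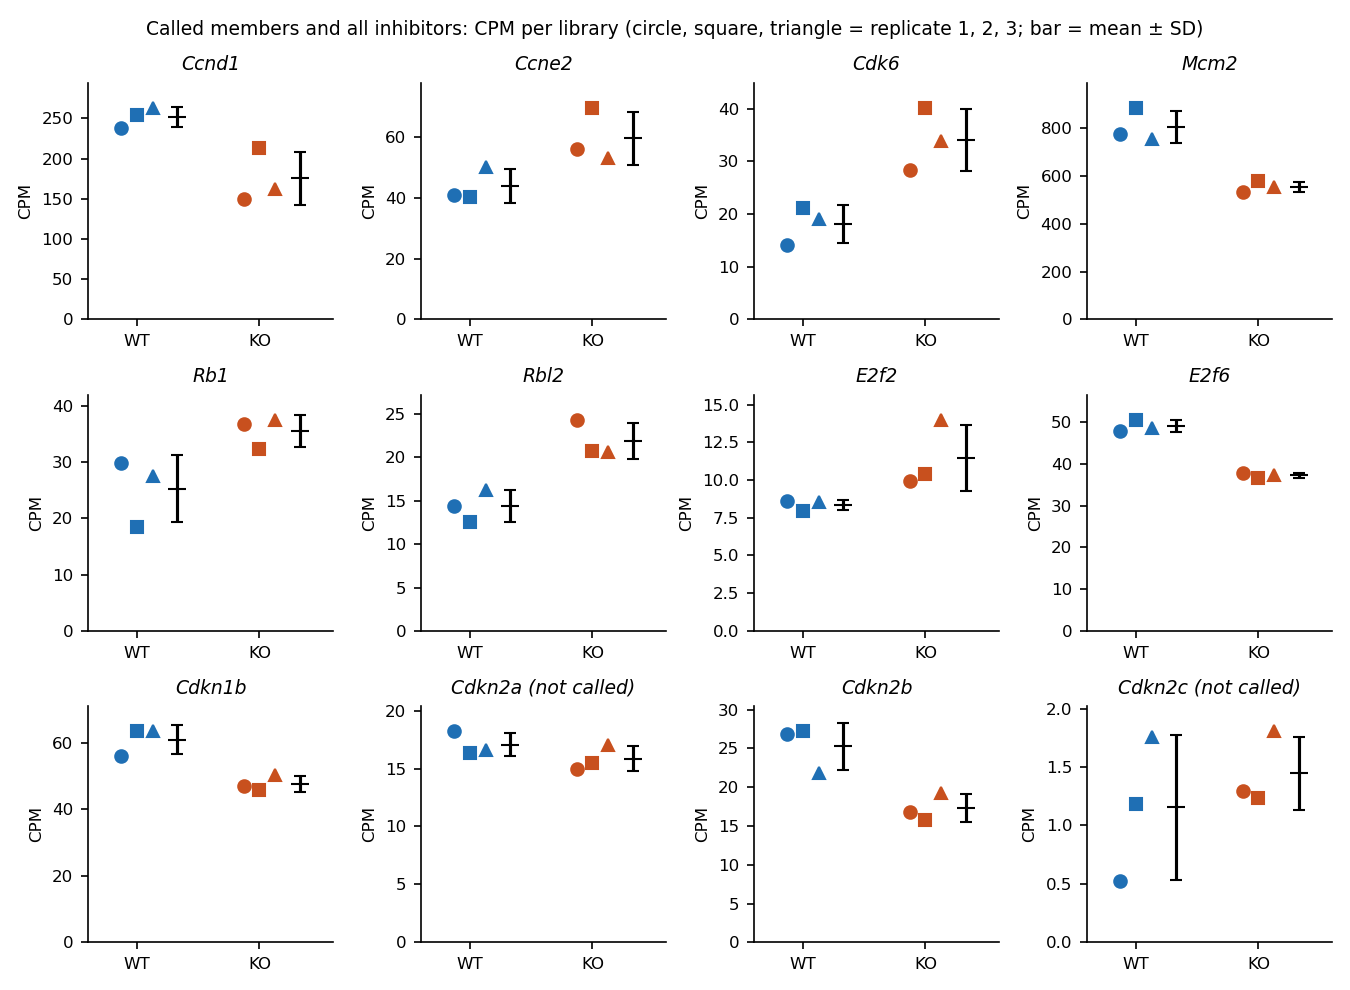
Levels in CPM (y axis, from 0) of the 10 called members and of the inhibitors Cdkn2a and Cdkn2c in each WT and KO library, with the mean ± SD of 3 libraries beside the points and a marker shape for each replicate number. WT and KO points do not overlap for any of the 10 called genes, and they overlap for Cdkn2a and Cdkn2c.

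Of the pocket proteins, which hold E2F factors in check, Rb1 and Rbl2 were higher in KO EpiLCs. Rbl2 (ENSMUSG00000031666.16, chromosome 8, 91796664 to 91850492), the p130 protein of resting cells, rose from 14.3, 12.6 and 16.2 CPM in WT to 24.3, 20.8 and 20.6 CPM in KO libraries. The groups were apart, with a log2 fold change of 0.60 (SE 0.15, edgeR adjusted p = 0.00685) that ranged from 0.51 to 0.70 when single libraries were left out. Rb1 (ENSMUSG00000022105.7, chromosome 14, 73421113 to 73563507) had 29.8, 18.5 and 27.5 CPM in WT and 36.8, 32.2 and 37.5 CPM in KO libraries, WT replicate 2 being the lowest. Its log2 fold change was 0.48 (SE 0.15, edgeR adjusted p = 0.0280). It no longer passed without WT replicate 2 (0.31, edgeR adjusted p = 0.157) or without KO replicate 3 (0.44, edgeR adjusted p = 0.104). Rbl1 did not pass, with 36.9 to 46.3 CPM in WT and 37.1 to 47.5 CPM in KO EpiLCs and an interval of the log2 fold change from −0.27 to 0.27. Per length, Rbl1 made up 62.7% ± 3.58 (SD, n = 3) of the pocket protein level in WT and 53.5% ± 3.71 in KO EpiLCs, Rb1 23.6% ± 3.79 and 28.5% ± 1.34, and Rbl2 13.7% ± 0.205 and 18.0% ± 2.45. Both called genes share exonic bases with genes on the opposite strand, Rbl2 with Aktip over 4194 bases and Rb1 with Rcbtb2 over 488 and Lpar6 over 408. Aktip held 328% as many counts as Rbl2, and Rcbtb2 and Lpar6 held 173% and 98.3% as many as Rb1. Their log2 fold changes were −0.21, 0.20 and 0.27, and none passed. If counting ignored the strand, the reads of these stretches cannot be told apart.

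Of the 8 E2F factors, E2f6 was lower and E2f2 higher in KO EpiLCs. E2f6 (ENSMUSG00000057469.9, chromosome 12, 16860874 to 16890766) is a repressor that works without pocket proteins. It had 47.8, 50.5 and 48.7 CPM in WT and 37.8, 36.6 and 37.4 CPM in KO libraries. The spread within each genotype was small against the gap between them, and the log2 fold change was −0.40 (SE 0.11, edgeR adjusted p = 0.0117). It passed under all 15 alternatives, with values between −0.42 and −0.38. E2f2 (ENSMUSG00000018983.10, chromosome 4, 135899585 to 135923368), an activator, had 8.58, 7.94 and 8.52 CPM in WT and 9.97, 10.4 and 14.0 CPM in KO libraries. KO replicate 3 stood above the others, and the log2 fold change of 0.46 (SE 0.18, edgeR adjusted p = 0.0898) was close to the threshold. Without KO replicate 3 it was 0.29 with an adjusted p of 0.375, and 9 of 15 alternatives lost the call, among them DESeq2 (adjusted p = 0.117) and the fits without WT replicate 1, 2 or 3 (adjusted p = 0.128, 0.203 and 0.143 from edgeR). The other activators, E2f1 and E2f3, had log2 fold changes of −0.25 and 0.18 and did not pass. Nor did E2f4 and E2f5, which act with pocket proteins as repressors (−0.022 and −0.20), or the atypical repressors E2f7 and E2f8 (−0.0089 and 0.13). For E2f1 and E2f5 the KO libraries lay below the WT libraries, as groups did not overlap for 33.7% of all genes tested. E2f1 had 8.75 to 11.1 CPM in KO and 11.6 to 12.9 CPM in WT libraries, and E2f5 30.3 to 34.8 and 36.4 to 38.6 CPM. E2f5 shares 1731 exonic bases with Rbis on the opposite strand, which held 222% as many counts. Per kilobase of all annotated exons, E2f4 had the highest level of the E2F genes. It made up 28.1% ± 3.75 (SD, n = 3) of the family in WT and 28.3% ± 0.767 in KO EpiLCs. The family summed to 45.4 ± 1.19 and 44.4 ± 1.61 CPM per kb.

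Of the 4 inhibitors, Cdkn2b and Cdkn1b were lower in KO EpiLCs. Cdkn2b (ENSMUSG00000073802.6, chromosome 4, 89223204 to 89229276), an Ink4 inhibitor known as a target of TGF-β signals, had 26.8, 27.2 and 21.8 CPM in WT and 16.8, 15.7 and 19.3 CPM in KO libraries. Every KO library was below every WT library, with replicate 3 of each genotype the nearest to the other. The log2 fold change was −0.55 (SE 0.14, edgeR adjusted p = 0.0100). Its neighbour Cdkn2a (89192708 to 89212890), which encodes the Ink4a and Arf proteins that counts on the gene do not separate, had 18.2, 16.3 and 16.6 CPM in WT and 14.99, 15.5 and 17.1 CPM in KO libraries. These values overlapped, with a log2 fold change of −0.11 (95% interval −0.40 to 0.19). Cdkn2c was barely counted, with 7, 13 and 26 counts in WT and 16, 16 and 24 counts in KO libraries, and its interval of −0.60 to 1.22 leaves its difference undetermined at this depth. Per length, Cdkn2b supplied 38.7%, 41.4% and 35.6% of the 3 Ink4 transcripts of the list in WT and 32.2%, 30.1% and 32.3% in KO libraries. Cdkn1b (ENSMUSG00000003031.15, chromosome 6, 134897364 to 134902476), the Cip/Kip inhibitor p27, fell from 56.0, 63.3 and 63.4 CPM in WT to 46.8, 45.7 and 50.3 CPM in KO libraries. The log2 fold change was −0.36 (SE 0.11, edgeR adjusted p = 0.0224). It lies in a part of chromosome 6 where other tested genes within 10 Mb had a median of −0.081.

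**Figure D3:**
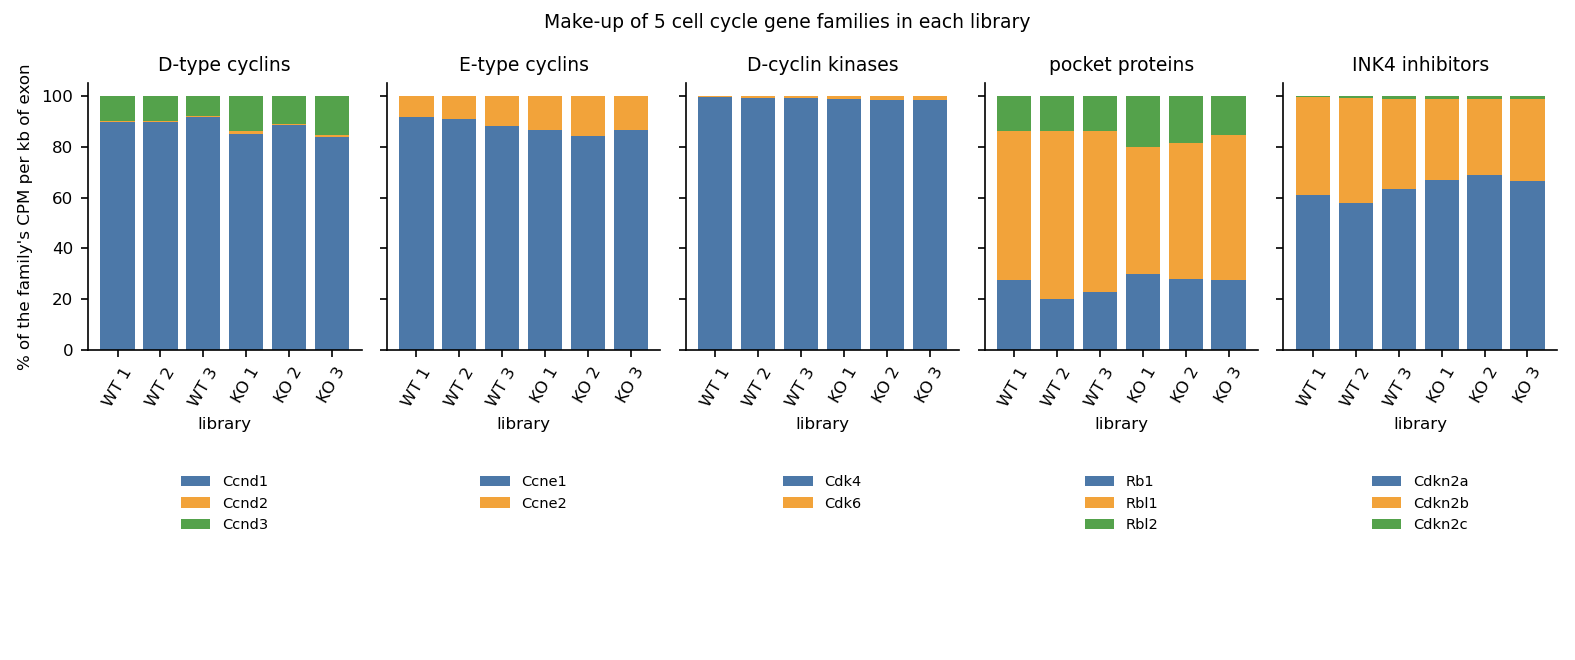
Make-up of 5 gene families in each of the 6 libraries, as the percentage (y axis) of the family's CPM per kilobase of exon that each gene supplies. Ccnd1, Ccne1 and Cdk4 form the larger part of their families in all libraries, and the shares of Ccnd1, Ccne1, Rbl1 and Cdkn2b are lower in each KO library than in any WT library.

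With genotype as the only term, none of the 11 G2-M members passed the test, by edgeR or by DESeq2. In this edgeR fit 0 of them had an unadjusted p below 0.05. With the replicate block 1 of them passed in edgeR, Mki67, as given below. Without the block, the log2 fold changes of the 11 lay between −0.15 for Cdc25b and 0.20 for Mki67, with a median of 0.016. The 95% intervals of all 11 stayed between −0.41 and 0.45. Cyclin A (Ccna2) had 440.0, 452 and 432 CPM in WT and 409.6, 439 and 422 CPM in KO libraries. Cdc20, the G2-M member with the highest level per length, had 469, 451 and 398 CPM in WT and 418, 429 and 459.8 CPM in KO libraries. For both genes the groups overlapped. Plk1, the kinase that opens mitosis, stayed between 63.4 and 69.4 CPM in all 6 libraries, with an interval of −0.20 to 0.22. Aurka and Aurkb, which act on spindle poles and centromeres, had 164 to 179 and 95.8 to 104 CPM in WT and 166 to 183 and 102 to 114 CPM in KO EpiLCs. Bub1, of the spindle checkpoint, ranged more widely in WT (236 to 313 CPM) than in KO EpiLCs (267 to 274 CPM). Ccnb2 had 167 to 186 CPM in WT and 157 to 173 CPM in KO EpiLCs, and Cdc25b, which activates Cdk1, 22.6 to 24.6 and 20.7 to 22.6 CPM.

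Cdk1 and its partner cyclin Ccnb1 were the G2-M members whose groups did not overlap. Cdk1 had 293, 323 and 312 CPM in WT and 329, 369 and 338 CPM in KO libraries (log2 fold change 0.16, 95% interval −0.038 to 0.36, edgeR adjusted p = 0.278). Ccnb1 had 571, 633 and 578 CPM in WT and 633, 658 and 652 CPM in KO libraries (log2 fold change 0.13, edgeR adjusted p = 0.396). The processed pseudogene Ccnb1-ps, a copy of Ccnb1, held 4.43% as many counts. Neither member passed, and 33.7% of all genes tested did not overlap. Mki67, which encodes the proliferation marker Ki-67, had 386, 289.5 and 428 CPM in WT and 422, 382 and 461 CPM in KO libraries, so that replicate 2 was the lowest in both genotypes. Its log2 fold change was 0.20 (edgeR adjusted p = 0.306). In the fit with the replicate block it was 0.21 and passed (edgeR adjusted p = 0.0615), and without WT replicate 3 it was 0.32 and also passed (edgeR adjusted p = 0.0943), whereas without WT replicate 2 it was 0.047.

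The balance of G2-M and G1-S transcripts was then set side by side in each library. The mean log2 CPM of the 11 G2-M members minus that of the 11 G1-S members was 0.87, 0.73 and 0.85 in WT libraries and 0.85, 0.75 and 0.86 in KO libraries. The means were 0.82 ± 0.079 (SD, n = 3) in WT and 0.82 ± 0.059 in KO EpiLCs, a difference of 0.0023 that was smaller than the spread between replicates. Replicate 2 had the lowest value in both genotypes. The median log2 fold changes of the G1-S and G2-M members were 0.0022 and 0.016, beside 0.0014 for all genes tested. The G1-S median is the value of Ccnd2, a gene of low counts on chromosome 6 with a 95% interval from −0.59 to 0.60. Mcm2, also of the G1-S class and on chromosome 6, had −0.54 in a neighbourhood of −0.51 and enters the class mean. The balance without these 2 genes is not given here. The 4 called genes of the G1-S class moved in both directions, 2 higher and 2 lower in KO EpiLCs.

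**Figure D4:**
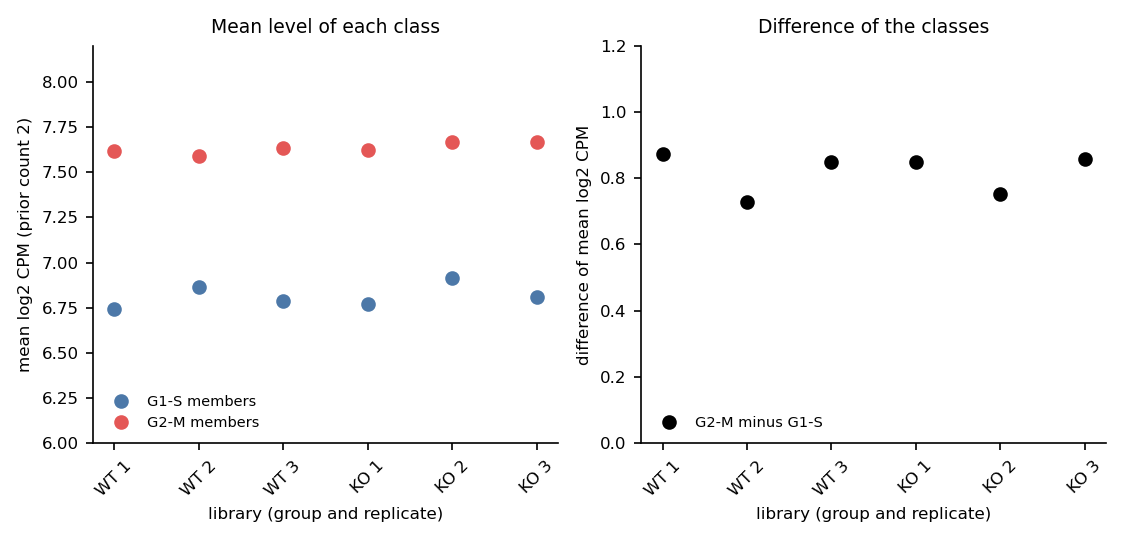
Left, mean log2 CPM (prior count 2) of the 11 G1-S and the 11 G2-M members in each library (x axis, axis not from 0). Right, their difference, from 0.73 to 0.87, with replicate 2 lowest in both WT and KO EpiLCs.

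The order of the members by level per kilobase of exon was much the same in both genotypes. In WT EpiLCs it began with Cdc20 (225 CPM per kb), Cdk4 (165), Ccnb1 (138), Mcm5 (114) and Ccna2 (108 CPM per kb), and it ended with Cdk6 (1.25), Rbl2 (1.21), Ccnd2 (0.311) and Cdkn2c (0.182 CPM per kb). The 5 genes at the top stood in the same order in KO EpiLCs. Neighbours in this order such as Mcm5 (114 ± 12.9 CPM per kb, SD, n = 3) and Ccna2 (108 ± 2.54) did not differ beyond their spread. Mcm2 (101.4 ± 8.65 CPM per kb in WT) was ahead of Ccnb2 (79.3 ± 4.15) in WT and behind it in KO EpiLCs (69.9 ± 2.77 against 74.5 ± 3.78). Most mitotic regulators thus stood well above the E2F factors and pocket proteins, the highest of which, E2f4, had 12.8 CPM per kb, and Cdc25b, at 2.34 CPM per kb, was the exception among the G2-M members.

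Beyond the members, 3 further lists of cell cycle genes were examined. Of 60 other DNA replication genes, 7 were higher and 1 lower in KO EpiLCs, and 52 did not pass (13.3% called, beside 24.3% of all genes tested), with a median log2 fold change of 0.091. The lowest adjusted p-values among the higher genes belonged to Cdc45, a helicase cofactor, Chaf1b, a histone chaperone subunit, and Rfc4, of the clamp loader. Cdc45 rose from 74.7, 86.4 and 83.9 CPM in WT to 141, 146 and 139 CPM in KO libraries (log2 fold change 0.80, edgeR adjusted p = 1.36e-05). Chaf1b and Rfc4 had log2 fold changes of 0.67 and 0.68. These 3 genes and Mcm4 are the 4 genes of the list on chromosome 16, and their neighbourhoods within 10 Mb had medians from 0.49 to 0.54. The gene that was lower, Rpa3, of the single-strand binding complex, lies on chromosome 6 and had −0.45 in a neighbourhood of −0.57. Elsewhere in the genome 3 of 54 replication genes passed, all higher: Tyms, Hells and Timeless, with 0.37, 0.40 and 0.27. The share of all genes that passed outside chromosomes 6 and 16 is not given here. Under the replicate block, 15 of the 60 genes passed, beside 30.3% of all genes tested, and without WT replicate 3, 14.

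Of 60 other G2-M genes, 5 were higher and 5 lower in KO EpiLCs. Their log2 fold changes had a median of 0.050. The share called, 16.7%, lay below the 24.3% found among all 15746 genes. Hmmr, a spindle protein, Ttk, a checkpoint kinase, and Kif20b, a kinesin, were higher, with log2 fold changes of 0.43, 0.32 and 0.38. Plk4, the kinase that starts centriole duplication, fell from 196, 179.5 and 219.8 CPM in WT to 129, 134 and 119 CPM in KO libraries (log2 fold change −0.64, SE 0.10, edgeR adjusted p = 0.000165). Mad2l1, of the spindle checkpoint, and Incenp, the partner of Aurkb, followed with −0.55 and −0.44. Mad2l1 lies on chromosome 6 in a neighbourhood of −0.52, while the chromosomal neighbourhoods of Plk4 and Incenp had medians of −0.12 and −0.059. Under the replicate block 15 of the 60 passed, beside 30.3% of all genes tested. Without WT replicate 2 or without KO replicate 1, 5 genes of the list passed, and without WT replicate 3, 16. The transcription factors Foxm1 and Mybl2 and the topoisomerase Top2a, looked at after the values were seen, did not pass (log2 fold changes −0.16, −0.070 and 0.0066), and the neighbourhood of Foxm1 on chromosome 6 had a median of −0.048.

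Of 49 tested genes among 50 other control genes (Ccnb3 had too few counts), 6 were higher and 4 lower in KO EpiLCs. Their log2 fold changes had a median of 0.069. The share called, 20.4%, also lay below the 24.3% of all genes. Under the replicate block 14 passed, beside 30.3% of all genes. The Cip/Kip inhibitors Cdkn1c and Cdkn1a had the lowest adjusted p-values of those that were lower. Cdkn1c, known as an imprinted gene, fell from 104, 104 and 85.3 CPM in WT to 63.1, 55.3 and 48.2 CPM in KO libraries (log2 fold change −0.82, SE 0.12, edgeR adjusted p = 6.92e-05). Cdkn1a, known as a p53 target, fell from 25.8, 23.8 and 18.7 CPM in WT to 13.9, 10.3 and 10 CPM in KO libraries (log2 fold change −0.996, SE 0.17, edgeR adjusted p = 0.000322). Cul1, the scaffold of SCF ubiquitin ligases, was lower too (−0.56) in a neighbourhood of chromosome 6 at −0.49. Mycn, a Myc family factor, Fbxw7, an SCF subunit that targets cyclin E, and Chek2, a checkpoint kinase, were higher, with log2 fold changes of 0.55, 0.45 and 0.45. Myc itself had −0.21 and did not pass (edgeR adjusted p = 0.542), and the Ink4 gene Cdkn2d, at 8.43 and 7.28 CPM, did not pass either (edgeR adjusted p = 0.521).

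**Figure D5:**
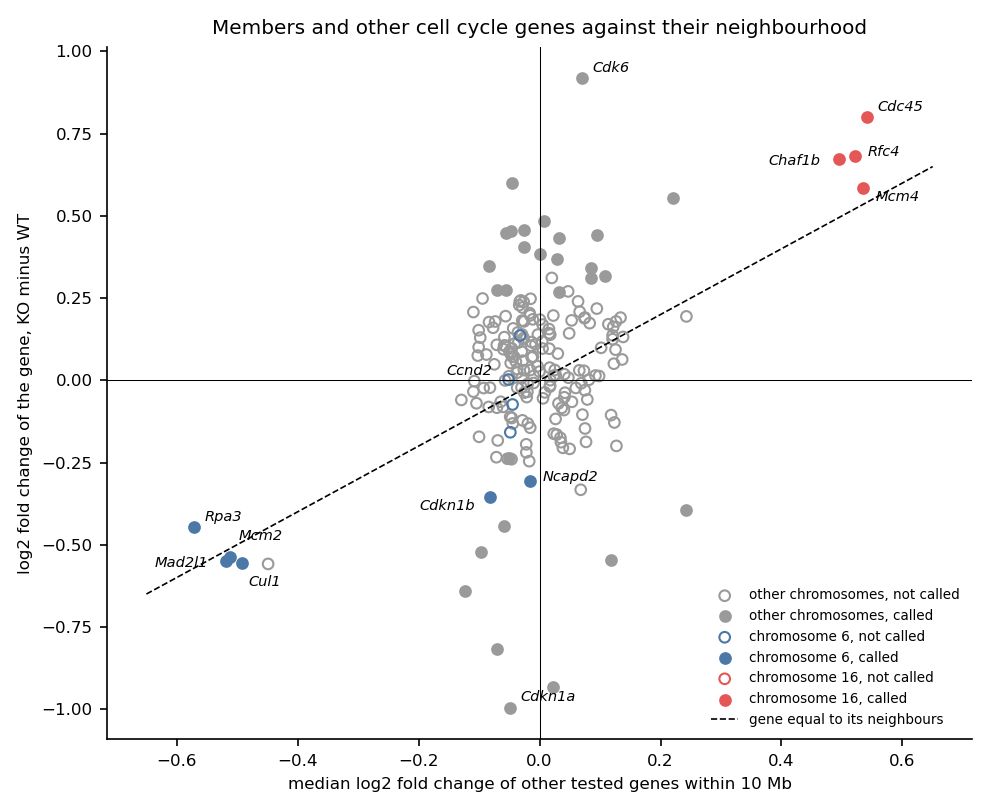
Log2 fold change of each tested member and listed cell cycle gene (y axis, KO minus WT) against the median log2 fold change of the other tested genes within 10 Mb (x axis), filled where the adjusted p was below 0.1. Mcm2, Mad2l1, Cul1 and Rpa3 (blue) and Mcm4, Cdc45, Rfc4 and Chaf1b (red) lie near the dashed line of equal change or above it. The called chromosome 6 genes Cdkn1b (−0.36 in a neighbourhood of −0.081) and Ncapd2 (−0.31 in a neighbourhood of −0.016) lie below it. Cdk6 and Cdkn1a, on other chromosomes, lie far from it with neighbourhoods of 0.070 and −0.049.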

How the data were processed

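RNA-seq libraries of 3 WT and 3 Oct6 KO EpiLC cultures were analysed. The authors ran FastQC and Fastp on the reads and STAR, in its two-pass setting, against GRCm39, and deposited its raw counts per gene without normalization. The paper states that a stranded TruSeq kit was used for the libraries. The STAR version, annotation release, strand setting of the counting and treatment of multiply mapped reads are not given in the sources used here. Of 55416 identifiers, 54749 matched GENCODE M39 (GRCm39), which gave symbols, positions and exon lengths. Unmatched ones held 0.0602% of the counts.

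Genes were tested in R 4.3.3 with edgeR 4.0.16 (TMM, filterByExpr with a minimum count of 10, quasi-likelihood test, genotype as the only term, Benjamini-Hochberg adjustment over 15746 genes, threshold 0.1). Standard errors came from the F statistic and intervals from the t distribution with the test's degrees of freedom. Class means used log2 CPM with a prior count of 2. Levels per kilobase used the union of exons. Lists were described by counts and medians only. Alternatives were DESeq2 1.42.0, other scalings and filters, a replicate block, a threshold of 0.05 and each library left out. Leaving out the genes of chromosomes 6 and 16 was added after the data were seen. The edgeR test was tried on simulated counts of independent libraries. Replicate pairing and shifts of whole chromosomes were not part of the simulation.

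The series describes the replicates as paired. Across 14793 genes, deviations from group means correlated at 0.212, 0.252 and 0.102 between libraries with the same number and from −0.195 to −0.0233 otherwise. The members and lists were chosen with earlier results of these data known. Every member is given with values. Of each further list, the 3 genes per direction with the lowest adjusted p are named. Mcm3, Mcm4, Mcm6, Mcm7, Hells, Timeless, Tyms, Foxm1, Mybl2, Top2a, Ncapd2, Myc and Cdkn2d were added after their values were seen. Promoter sequences came from RefSeq on GRCm38.p6, no coordinate of which was combined with GRCm39.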

Additional observations from a re-analysis of the deposited data

How the results depend on the processing

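Across DESeq2, 3 other scalings, 2 other filters, a prior count of 0.5 for the class means, a threshold of 0.05, the replicate block, the removal of each library and the added removal of the genes of chromosomes 6 and 16, none of the 10 called members changed direction. Cdk6, Ccnd1, Mcm2, Rbl2, E2f6, Cdkn1b and Cdkn2b passed in each alternative that gave them a value, and Ccne2, Rb1 and E2f2 did not. The replicate block brought the G2-M members that passed to 1 (Mki67), and no call of another member changed. It brought the other DNA replication genes from 8 to 15, the other G2-M genes from 10 to 15 and the other control genes from 10 to 14. Over all genes tested, the share that passed also rose, from 24.3% to 30.3% with the block. Without the genes of chromosomes 6 and 16, which removes those genes from the lists, 1 inhibitor and 3 replication genes passed. With each library left out in turn, 2 to 4 E2F and pocket protein members passed, 0 to 1 G2-M members, 7 to 14 other DNA replication genes and 5 to 16 other G2-M genes. The shares of all genes that passed in these fits are not given here.

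The sign of the log2 fold change varied between the alternatives for 13 members that did not pass. The other members that did not pass kept their sign. Their intervals with genotype as the only term also reached both signs, so that their direction was not determined either. Without replicates left out, Rbl1 turned to 0.00037 with DESeq2 and 9.33e-05 with RLE size factors, and Ccnd2 to −0.021 with library totals, −0.0059 with no filter and −0.0051 with the replicate block. Library totals gave −0.017 for Plk1 and −0.0093 for Bub1. With each library left out, the log2 fold change ranged from −0.20 to 0.13 for Ccnd2, −0.0069 to 0.14 for Ccnd3, −0.0029 to 0.13 for Cdk4, −0.14 to 0.074 for Cdc25a, −0.10 to 0.057 for Mcm5, −0.079 to 0.036 for Cdc20, −0.025 to 0.039 for Plk1, −0.0045 to 0.067 for Aurka, −0.074 to 0.14 for Bub1, −0.13 to 0.11 for Rbl1, −0.13 to 0.099 for E2f4, −0.075 to 0.031 for E2f7 and −0.047 to 0.78 for Cdkn2c. The cause of these changes was not tested. Low counts limit Ccnd2 and Cdkn2c, and with at least 10 counts required in every library Cdkn2c could not be fitted.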
